A study of Arabidopsis thaliana with 24 samples.

Results

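The genes described here are 10 Arabidopsis thaliana genes of salicylic acid synthesis and EDS1 signalling: ICS1 (AT1G74710, named EDS16 by RefSeq), EDS5 (AT4G39030), PBS3 (AT5G13320), CBP60G (AT5G26920), SARD1 (AT1G73805), EDS1 (AT3G48090), PAD4 (AT3G52430), SAG101 (AT5G14930), NPR1 (AT1G64280) and FMO1 (AT1G19250). They were chosen by locus, and each has 1 probe set of its own among the 22746 tested on the Affymetrix ATH1 array. RNA came from leaves of plants 6 weeks old, grown in soil with 8 h of light a day, that had been infiltrated with 1 µM flg22 or with water and harvested after 4 h. The peptide flg22 is a piece of bacterial flagellin that the plant recognises at the cell surface as a sign of bacteria. Both treatments were given to 4 genotypes: the wild type Col-0, the erf104 knockout, the mpk6 mutant and the overexpressor 35S::ERF104, in which the viral 35S promoter drives the ethylene response factor ERF104 in most tissues. The MAP kinase MPK6 is activated when flg22 is perceived. Water-infiltrated plants of the same genotype were the control, so wounding and soaking by infiltration were common to both arms. Every group had 3 arrays, and erf104 flg22 is described by 2 of them, because the authors' own group means leave out its replicate 2. The labels do not say whether replicates were separate plants, pools or independent transgenic lines, so p-values measure only the spread between these samples, which may be technical.

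Salicylic acid is a defence hormone that Arabidopsis makes mainly from isochorismate. ICS1 forms isochorismate in the chloroplast, EDS5 moves it out, and PBS3 joins it to glutamate to give a product that breaks down to salicylic acid. CBP60G and SARD1 are transcription factors that bind the ICS1 promoter. EDS1 pairs with PAD4 or with SAG101 to relay signals from immune receptors and to reinforce salicylic acid synthesis, NPR1 is a salicylic acid receptor and coactivator of response genes, and FMO1 makes N-hydroxypipecolic acid, a mobile signal of systemic resistance.

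Values are linear intensities that the authors had scaled to a common trimmed mean of about 500.1 on each array. Detection calls (present, marginal or absent) were deposited per group only. Col-0 was measured least evenly: arrays of Col-0 water correlated at 0.61 to 0.73 across probe sets and those of Col-0 flg22 at 0.73 to 0.84, against 0.84 to 0.93 within the other groups. The lowest signal among probe sets called present on every array of the group ran from 146 to 347 in Col-0 water and from 33.96 to 38.01 in 35S::ERF104 water. The left-out erf104 flg22 array correlated with every other array at 0.22 to 0.25. ERF104 was at least 95.01-fold higher in 35S::ERF104 than in Col-0 under water, and at least 4.27-fold lower in erf104 than in Col-0 under flg22 (limma adjusted p = 7.75e-10 and 0.00199). MPK6 in mpk6 differed from Col-0 by −1.69 on the log2 scale under water and by −1.47 under flg22, and neither passed (adjusted p = 0.0579 and 0.257). The receptor kinase gene FRK1, an early marker of flagellin perception, rose in all 4 genotypes, by 3.20 to 5.18 on the log2 scale. All 5 measured markers of leaf mesophyll were called present on every array of every group, and all 3 flower markers were called absent throughout.

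Of the 10 genes, CBP60G alone rose with flg22 in all 4 genotypes, by a fitted 8.59-fold to 12.4-fold. In Col-0 and mpk6 CBP60G was called absent on part of the water arrays, which limits these sizes. ICS1 rose about 2.12-fold in erf104 and 1.72-fold in 35S::ERF104, PBS3 rose at least 4.41-fold in erf104, and EDS1, SAG101 and NPR1 rose 1.97-fold, 1.95-fold and 1.40-fold in 35S::ERF104. PAD4, EDS5 and SARD1 passed the test in no genotype, and FMO1 was called absent in every group. No member fell. Read against all probe sets (limma, Benjamini-Hochberg adjustment, threshold 0.05), 1 of 10 members was called in Col-0 where 1.86% of all probe sets were called in either direction. In erf104, 3 members were called against 9.71%. In mpk6 it was 1 against 3.72%, and in 35S::ERF104 it was 5 against 18.4%. The median log2 responses of the 10 genes were 0.26 (Col-0), 0.89 (erf104), 0.91 (mpk6) and 0.75 (35S::ERF104), beside medians over all probe sets of −0.39, −0.08, 0.01 and −0.11.

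**Figure D1:**
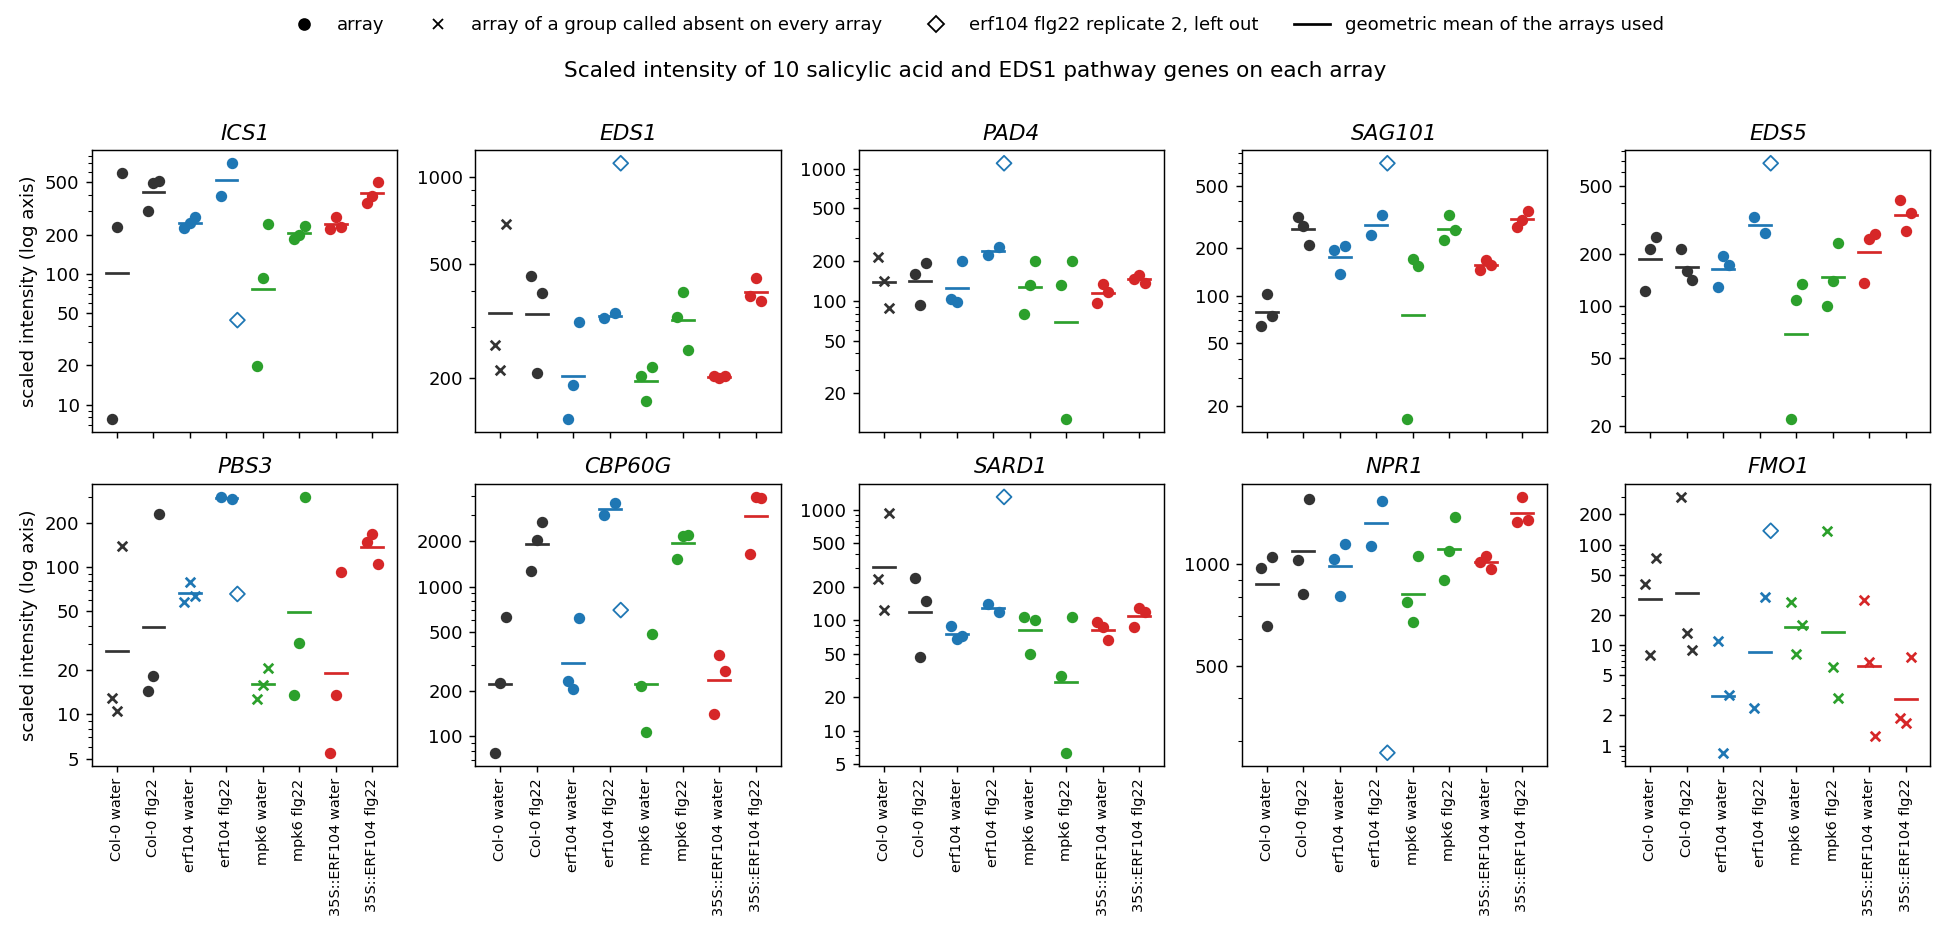
Scaled intensity (log axis) of each of the 10 genes on each array of the 8 groups. Points are arrays, crosses are arrays of groups in which the gene was called absent throughout, open diamonds are the left-out erf104 flg22 array, and lines are geometric means of the arrays used. The flg22 arrays of CBP60G lie above its water arrays in every genotype, and FMO1 has crosses only.

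Of the regulators of synthesis, CBP60G was called and SARD1 was not. CBP60G, a calmodulin-binding transcription factor, read 77.9, 228 and 627 on the 3 Col-0 arrays given water and 1274, 2039 and 2709 on those given flg22. In erf104 the water arrays read 234, 206 and 612 and the flg22 arrays 2991 and 3579. The mpk6 levels were 216, 106 and 480 under water and 1529, 2184 and 2217 under flg22. In every genotype the lowest flg22 array thus stood above the highest water array. The 35S::ERF104 arrays read 142, 348 and 271 under water and 1658, 3957 and 3919 under flg22, also without overlap. On the log2 scale the rise in Col-0 was 3.10 ± 0.58 (SE of the fit; adjusted p = 0.00263), that in erf104 3.40 ± 0.39 (0.000841), that in mpk6 3.13 ± 0.45 (0.00321) and that in 35S::ERF104 3.64 ± 0.37 (0.000135). By size of rise CBP60G ranked 87 among the 359 probe sets that rose with Col-0, and for erf104, mpk6 and 35S::ERF104 it ranked 73 among 992, 75 among 494 and 40 among 1814. It kept its call in each genotype whichever single array was left out, but the size in Col-0 moved from 2.34 without water replicate 1 to 3.85 without water replicate 3. Water replicate 1, the array at 77.9, lies below the lowest signal called present there (347), and the gene was called absent on part of the Col-0 and mpk6 water arrays, so the fold in those lines rests in part on signal not above background. With a variance prior that ignores intensity it passed in 35S::ERF104 only (adjusted p = 0.0267), and the adjusted p was 0.422 for Col-0, 0.145 for erf104 and 0.199 for mpk6. That fit called 0 of all probe sets in Col-0, erf104 and mpk6, and 1740 in 35S::ERF104.

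SARD1, the close relative of CBP60G that acts beside it on ICS1, did not pass in any genotype. Without flg22 its Col-0 arrays, called absent throughout, read 239, 125 and 949, and with flg22 they read 244, 46.4 and 151. In erf104 they read 88.8, 68.2 and 71.8 under water and 141 and 120 under flg22, a log2 difference of 0.78 ± 0.50 (adjusted p = 0.424). In 35S::ERF104 the difference was 0.42 ± 0.37 (adjusted p = 0.519). For mpk6 the level was 108, 49.8 and 100 under water and 31.3, 6.28 and 108 under flg22, so the groups overlapped and the spread under flg22 exceeded the difference. Over the 4 genotypes the geometric mean of SARD1 under flg22 was 27.6 to 130, and under water 75.7 to 305, the highest value being that of the Col-0 group called absent.

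Among the synthesis genes, ICS1, the enzyme that commits chorismate to salicylic acid, read 225, 244 and 273 in erf104 water and 391 and 701 in erf104 flg22. The rise was 1.09 ± 0.30 on the log2 scale (adjusted p = 0.0445). In 35S::ERF104 its levels were 219, 272 and 230 under water and 348, 397 and 507 under flg22, a rise of 0.79 ± 0.20 (adjusted p = 0.0199). Neither pair of groups overlapped. Both calls were fragile: in erf104 it was lost without water replicate 1, water replicate 2 or flg22 replicate 3 (adjusted p up to 0.522), and in 35S::ERF104 without water replicate 1 or 3 or flg22 replicate 2 or 3 (up to 0.0761). In Col-0 the ICS1 arrays read 7.76, 229 and 589 under water and 302, 491 and 512 under flg22. The log2 difference was 2.06 ± 1.08 and did not pass (adjusted p = 0.473). The groups overlapped, and the array at 7.76 lies below the lowest signals called present in that group. The SD of ICS1 in Col-0 water, 3.28 on the log2 scale, was the highest of any member there. In mpk6 the arrays read 19.8, 93.6 and 239 under water and 185, 200 and 232 under flg22 (1.43 ± 0.81; adjusted p = 0.474).

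PBS3, the enzyme that conjugates isochorismate with glutamate, had its clearest difference in erf104. It was called absent on all erf104 water arrays, at 57.5, 78.6 and 63.7, and present on both flg22 arrays, at 298 and 287. That is at least 4.41-fold higher (adjusted p = 0.0118), taking for each water array the higher of its own signal and the lowest signal called present in the group. The call was lost without either flg22 array (adjusted p up to 0.169). In 35S::ERF104 the arrays read 5.48, 13.5 and 91.7 under water and 149, 167 and 104 under flg22, which did not overlap. The log2 difference there was 2.86 ± 0.90 and just missed the threshold (adjusted p = 0.0511). PBS3 was called absent on part of the arrays of both 35S::ERF104 groups. The water arrays at 5.48 and 13.5 lie below the lowest signals called present on them, so the size of this difference is uncertain. In Col-0 and mpk6 PBS3 was called absent under water and 1 array of 3 stood far above the others under flg22, at 227 beside 14.4 and 18.2 in Col-0 and at 299 beside 13.6 and 30.2 in mpk6. No fold is given for either.

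EDS5, the chloroplast transporter of the pathway, was at 129, 194 and 173 in erf104 water and at 330 and 265 in erf104 flg22 (0.86 ± 0.34; adjusted p = 0.155). In 35S::ERF104 it was at 136, 246 and 262 under water and at 413, 272 and 349 under flg22 (0.72 ± 0.28; adjusted p = 0.112). The arrays of both genotypes were higher under flg22 without overlap, but the differences did not pass. In mpk6 the difference was 1.11 ± 0.80 (adjusted p = 0.613), with a water array at 22.0 far below the other two, at 109 and 135. In Col-0 it was −0.15 ± 0.85 (adjusted p = 0.965).

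**Figure D2:**
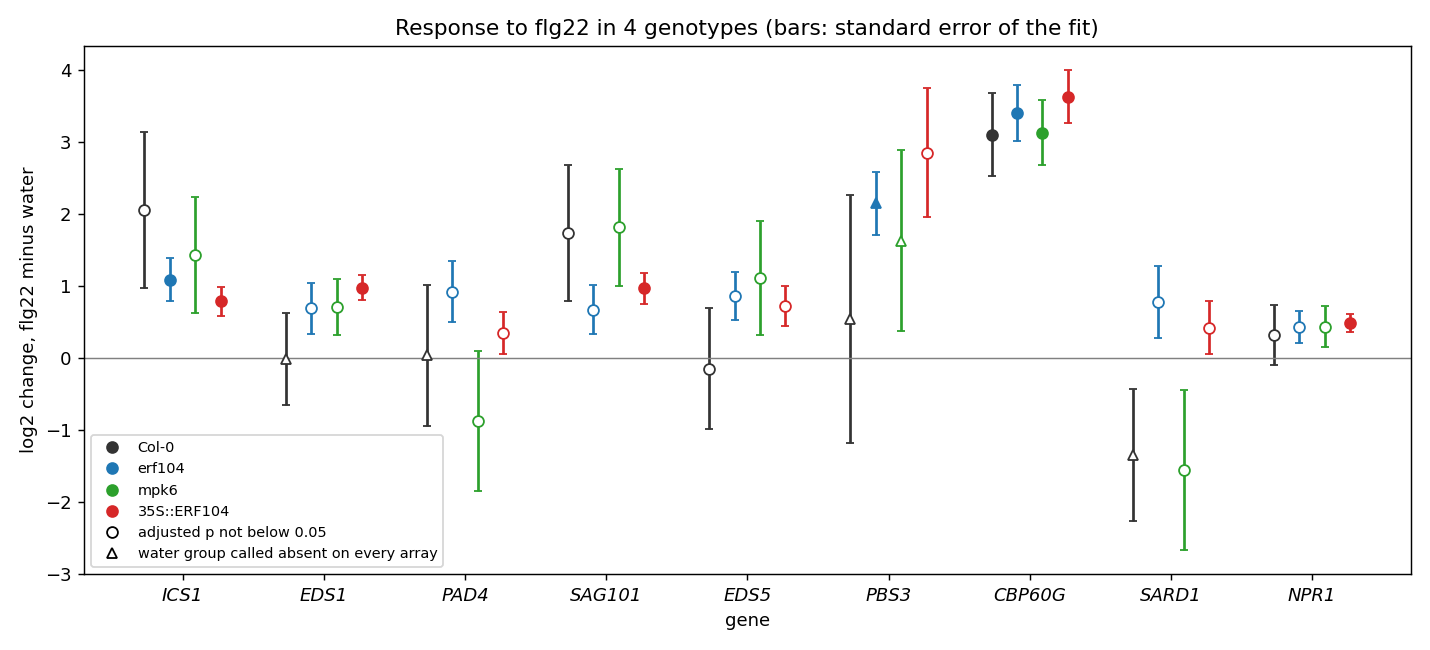
Log2 change from water to flg22 for 9 of the genes in 4 genotypes, FMO1 being left out because it was called absent in every group. Bars are 1 standard error of the fit, filled symbols passed the adjusted threshold of 0.05, and triangles mark genes called absent in the water group, whose fitted change is no measure of size. CBP60G is filled in all 4 genotypes at 3.10 to 3.64, and 35S::ERF104 has the shortest bars for most genes.

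Of the EDS1 node, SAG101 was higher under flg22 without overlap in every genotype. For Col-0 this partner of EDS1 read 64.7, 103 and 74.6 under water and 315, 278 and 211 under flg22. The water arrays were called marginal or absent and lie below the lowest signals called present there, so the size of the Col-0 difference was not measured. In erf104 it was at 194, 137 and 206 under water and at 245 and 324 under flg22. In mpk6 the arrays read 16.5, 170 and 155 under water and 224, 324 and 262 under flg22. The array at 16.5 lies below the lowest signal called present on it (86.0), so the size of the mpk6 difference is uncertain. The arrays of 35S::ERF104 lay closer together, at 146, 169 and 157 under water and at 274, 301 and 347 under flg22. The test passed in 35S::ERF104 alone (0.97 ± 0.21; adjusted p = 0.00923). Elsewhere the fitted log2 difference was 1.74 ± 0.95 (Col-0), 0.67 ± 0.34 (erf104) and 1.82 ± 0.81 (mpk6; adjusted p = 0.494, 0.279 and 0.309). SAG101 and CBP60G were the members without overlap in Col-0, where 6.84% of all probe sets had every flg22 array above every water array. The count was 8 of 10 members in erf104 against 17.1% of all probe sets, 3 in mpk6 (SAG101, CBP60G and EDS1) against 9.46%, and 8 in 35S::ERF104 against 14.1%.

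EDS1 itself, a lipase-like protein, read 203, 200 and 204 in 35S::ERF104 water and 385, 446 and 370 in 35S::ERF104 flg22. It rose by 0.98 ± 0.18 on the log2 scale (adjusted p = 0.00343), and the calls of EDS1 and SAG101 in this line were kept whichever single array was left out. In erf104 EDS1 was at 144, 189 and 312 under water and at 323 and 336 under flg22 (0.69 ± 0.36; adjusted p = 0.300). In mpk6 it was at 203, 167 and 220 under water and at 327, 397 and 251 under flg22 (0.71 ± 0.39; adjusted p = 0.456). Both pairs lay apart without passing. In Col-0 the water arrays, called absent, read 261, 214 and 685 and the flg22 arrays 451, 208 and 396, so the groups overlapped fully and no fold is given. The neighbouring locus AT3G48080 has a probe set of its own, and cross-hybridisation between the pair was not tested.

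PAD4, the other partner of EDS1, read between 12.7 and 257 on the arrays used. It was higher without overlap in erf104, at 222 and 257 under flg22 beside 103, 98.0 and 198 under water (0.92 ± 0.42; adjusted p = 0.231). In 35S::ERF104 the flg22 arrays, at 146, 156 and 136, lay just above the water arrays at 95.6, 134 and 117 (0.35 ± 0.29; adjusted p = 0.500). In Col-0 and mpk6 its groups overlapped.

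NPR1, the salicylic acid receptor, was called present on every array of 7 groups. The Col-0 arrays read 974, 655 and 1048 under water and 1030, 815 and 1559 under flg22. In 35S::ERF104 they read 1015, 1057 and 967 under water and 1334, 1582 and 1350 under flg22, without overlap. The rise there was 0.49 ± 0.12 on the log2 scale (adjusted p = 0.0182), and it was lost without water replicate 1, water replicate 3 or flg22 replicate 2 (adjusted p up to 0.0939). The differences in Col-0, erf104 and mpk6 were 0.32 ± 0.42, 0.43 ± 0.22 and 0.43 ± 0.28 (adjusted p = 0.813, 0.308 and 0.552). FMO1 was called absent in all 8 groups, with array values from 0.851 to 297, and no change in it can be sized.

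Signals of leaf mesophyll moved with treatment as well, and they are given first for 35S::ERF104, which holds 5 of the 10 calls. In 35S::ERF104, 3 of 5 measured mesophyll markers fell with flg22: GAPA by 0.77, LHCB3 by 0.68 and RCA by 0.61 on the log2 scale (adjusted p = 0.00961, 0.0332 and 0.0490). Over all 22746 probe sets 18.4% were called in this line in either direction, and 2363 were called lower. The summed intensity of the 5 markers was 188183 to 214902 on the water arrays and 126169 to 139697 on the flg22 arrays. The sum was lower under flg22 without overlap also in Col-0 (179284 to 375647 under water, 125084 to 155234 under flg22) and in erf104 (128979 to 322407, then 121798 to 128697), while in mpk6 it overlapped (139045 to 216911, then 120891 to 162502). No mesophyll marker passed in those 3 genotypes, and a difference between the lines in this shift is not shown. The share of all probe sets lower without overlap is not given here, so the sums have no such background. Of 3 guard cell markers AT1G22690 fell by 1.12 in 35S::ERF104 (adjusted p = 0.0133), beside the same 18.4% of all probe sets. No vascular, root or flower marker passed for a flg22 response. In whole leaves, fewer cells of a type and less RNA per cell cannot be told apart, and the part of these shifts in the calls above was not tested.

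How far the fits could resolve a response differed between genotypes. The median SD of the 10 genes within a group, on the log2 scale, was 1.196 for Col-0 under water and 0.55 under flg22, beside 0.27 and 0.29 in 35S::ERF104. In Col-0 water no member was called present on all arrays and 5 were called absent on all. In 35S::ERF104 the members called present on all arrays numbered 7 under water and 8 under flg22. When 1 fit of all 23 arrays, sharing one estimate of the spread, replaced the separate fits, CBP60G was the member called in each genotype. The other calls in erf104 and 35S::ERF104 did not pass (adjusted p from 0.258 for EDS1 to 0.887 for ICS1, both in 35S::ERF104). Over all probe sets the calls went from 2209 to 672 in erf104 and from 4177 to 860 in 35S::ERF104. They went from 422 to 2386 in Col-0 and from 847 to 1291 in mpk6.

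**Figure D3:**
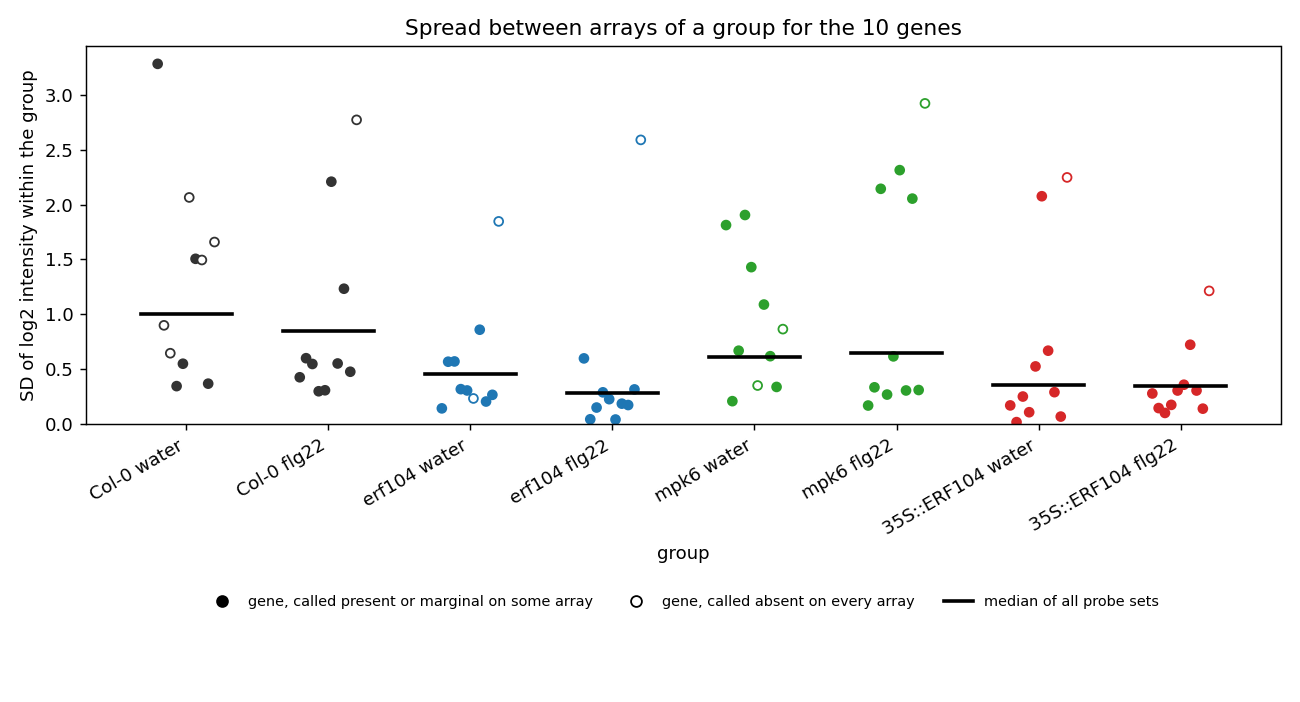
Standard deviation of log2 intensity between arrays of a group, for each of the 10 genes (points) and as the median of all probe sets (black lines). Open points are genes called absent on every array of the group, and erf104 flg22 has 2 arrays. The highest point in Col-0 water is ICS1, at 3.28, and the black line is highest there, at 1.00, and lowest in erf104 flg22, at 0.28.

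The study asked which flg22 responses depend on MPK6 and ERF104, which is a question about the difference between responses. For none of the 10 genes was a difference from the Col-0 response called in erf104, mpk6 or 35S::ERF104, and 0% of all probe sets were called in each of the 3 tests. The smallest adjusted p among the members was 0.836 in erf104 (SARD1), 0.739 in mpk6 (EDS5) and 0.785 in 35S::ERF104 (EDS1). No member had an unadjusted p under 0.05, which 1393, 1615 and 1531 of all probe sets had. For CBP60G the log2 response exceeded that of Col-0 by 0.30 in erf104 (95% interval −1.51 to 2.11), by 0.03 in mpk6 (−1.68 to 1.74) and by 0.53 in 35S::ERF104 (−1.17 to 2.24). Intervals this wide do not show that the lines responded alike. For NPR1 the intervals were narrower, −0.74 to 0.94 in erf104, −0.68 to 0.90 in mpk6 and −0.63 to 0.95 in 35S::ERF104. ICS1 was the least resolved of the genes with a measured level in all groups, with −3.38 to 2.12 in mpk6. The 3 comparisons share the Col-0 arrays.

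**Figure D4:**
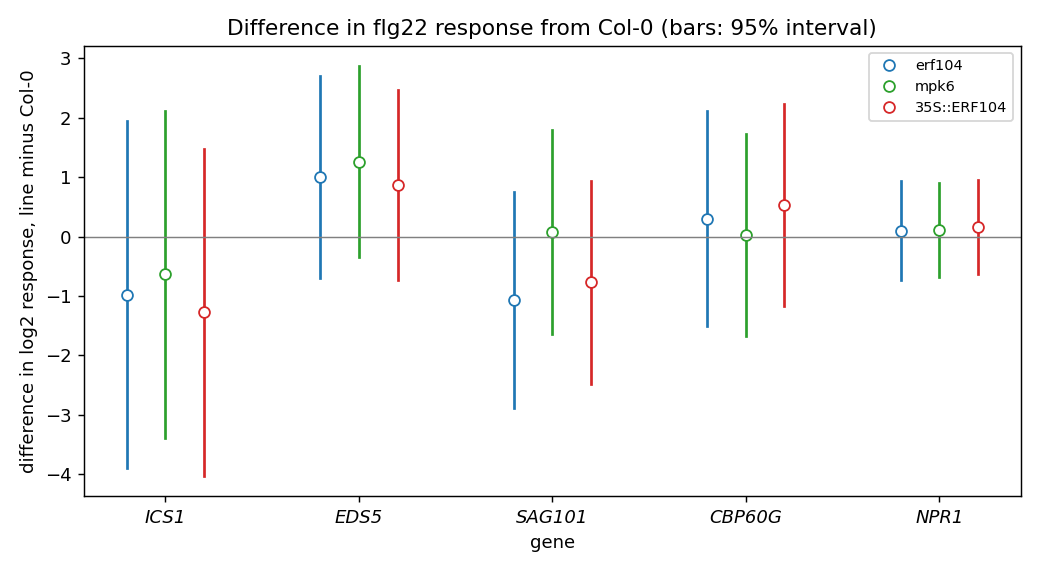
Difference between the log2 flg22 response of each line and that of Col-0 for the 5 genes that were called absent on all arrays of no group. Bars are 95% intervals from 1 fit of 23 arrays, and all of them include 0. The bars of NPR1 are the shortest and those of ICS1 the longest.

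Levels were also compared between genotypes within a treatment. Under water no member was called different from Col-0 in erf104, mpk6 or 35S::ERF104, where 6.3%, 0.0044% and 5.86% of all probe sets were called. SARD1 had the smallest adjusted p in erf104 and in 35S::ERF104 (0.124 and 0.139). Its Col-0 water arrays were called absent at 125 to 949, so no fold is given. It passed in erf104 when Col-0 water replicate 2 was left out (adjusted p = 0.0474). EDS5 was lowest in mpk6, with arrays at 22.0, 109 and 135 beside 123, 215 and 254 in Col-0 (−1.46 ± 0.55; adjusted p = 0.235). Under water all 10 members had a lower mean log2 intensity in mpk6 than in the wild type. On the linear scale SAG101 had a higher mean in mpk6, at 114 beside 80.8. Of the 10 log2 differences, 5 changed sign when arrays were centred on their medians and 6 under quantile normalization. The whole distribution lay lower too, with a median log2 difference over all probe sets of −0.51 (erf104), −0.35 (mpk6) and −0.48 (35S::ERF104). The median over the members was 0.02, −0.58 and −0.09, above that shift in erf104 and 35S::ERF104 and below it in mpk6.

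Under flg22 no member was called different from Col-0 in any line, where 0.0132%, 0% and 0.44% of all probe sets were called in erf104, mpk6 and 35S::ERF104. PBS3 in erf104, at 298 and 287 beside 14.4, 18.2 and 227 in Col-0, had a log2 difference of 2.91 ± 1.35 (adjusted p = 0.564). CBP60G differed from Col-0 by 0.77 ± 0.65 in erf104 (adjusted p = 0.723), 0.02 ± 0.59 in mpk6 (1.00) and 0.62 ± 0.59 in 35S::ERF104 (0.617). Ordered by geometric mean, CBP60G ran from 223 in mpk6 water through 223 in Col-0 water and 238 in 35S::ERF104 water to 309 in erf104 water. It went on from 1917 in Col-0 flg22 through 1949 in mpk6 flg22 and 2951 in 35S::ERF104 flg22 to 3272 in erf104 flg22. By linear mean 35S::ERF104 was lowest under water (254) and mpk6 lowest under flg22 (1976). In both orders the gap fell between the treatments. On either side of it no line was called different from Col-0, and other neighbours were not tested against each other. In the order of ICS1, mpk6 water was lowest at 76.2 and erf104 flg22 highest at 524.

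Of 48 further genes of the pathway, listed by role, 44 have a probe set of their own. None of the 44 passed for a flg22 response in Col-0, 5 rose in erf104, 1 fell in mpk6, and in 35S::ERF104 7 rose and 2 fell, where the shares of all probe sets called were 1.86%, 9.71%, 3.72% and 18.4%. These counts lie near that background. Of 6 measured helpers and partners of EDS1, 3 rose in 35S::ERF104 (18.4% of all probe sets called) and none passed in the other genotypes, and no difference between the lines' responses passed. The helper receptor gene ADR1-L1 read 1122, 1121 and 1174 under water and 2135, 2387 and 1761 under flg22 (0.87 ± 0.13; adjusted p = 0.00125). NUDT7, a Nudix hydrolase that restrains EDS1 signalling, read 1992, 2326 and 2621 under water and 3767, 4881 and 5077 under flg22 (0.98 ± 0.15; adjusted p = 0.00137). ADR1-L2, another helper receptor gene, rose by 0.77 ± 0.22 (adjusted p = 0.0349).

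Among 11 measured partners and relatives of NPR1, 3 rose in erf104 (9.71% of all probe sets called) and 2 in 35S::ERF104 (18.4%). TGA3 and TGA4, bZIP factors that bind DNA with NPR1, rose by 1.11 ± 0.20 and 1.44 ± 0.40 in erf104 (adjusted p = 0.00693 and 0.0484). NIMIN1, which binds NPR1 and represses it, also rose there (fitted log2 change 3.39 ± 0.82; adjusted p = 0.0265), but it was called absent on part of the water arrays, the lowest of which read 10.3, below the lowest signals called present, so this size is uncertain. In 35S::ERF104 it was TGA4, by 0.83 ± 0.22, and the salicylic acid receptor gene NPR3, by 0.69 ± 0.17 (adjusted p = 0.0226 and 0.0163). UGT76B1, a glucosyltransferase that acts on salicylic acid, rose by 2.48 ± 0.63 in erf104 (adjusted p = 0.0317). It too was called absent on part of the water arrays, the lowest of which read 44.7, below the lowest signals called present, so this size is uncertain. UGT74F2, another glucosyltransferase of salicylic acid, fell by 1.59 ± 0.35 in mpk6 and by 1.25 ± 0.35 in 35S::ERF104 (adjusted p = 0.0286 and 0.0311), and AT2G21340 fell by 0.89 ± 0.14 in 35S::ERF104 (adjusted p = 0.00166). Of 7 CBP60 and CAMTA genes 1, AT5G62570, rose in 35S::ERF104 (18.4% of all probe sets called), by 0.84 ± 0.24 (adjusted p = 0.0323), which is no more than that background. Of the 2 pipecolate genes measured AT5G52810 rose in erf104 by 1.03 ± 0.21 and in 35S::ERF104 by 0.85 ± 0.20 (adjusted p = 0.0116 and 0.0130), where 9.71% and 18.4% of all probe sets were called. The other, ALD1, which makes the precursor of pipecolate, was called absent in all groups.

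None of 8 measured salicylic acid response genes passed for a flg22 response in any genotype. PR1, the usual marker of salicylic acid action, read 341, 16.9 and 226 under water and 88.6, 103 and 83.7 under flg22 for Col-0. These water readings lie below the lowest signals called present on the same arrays (347, 146 and 293), so no change in PR1 is sized. PR1 was called absent on every array of 3 groups. Under water, 2 of the 44 genes were called higher than in Col-0 in erf104 and 3 in 35S::ERF104, and none was called lower. Over all probe sets 6.3% and 5.86% were called in either direction, so these counts lie near the background. PR5, which encodes a thaumatin-like defence protein, was higher than in Col-0 in erf104 (2.88 ± 0.72, adjusted p = 0.0258) and in 35S::ERF104 (2.77 ± 0.72, adjusted p = 0.0346). Its arrays read 308, 264 and 999.6 in Col-0, 2940.3, 3833 and 2864 in erf104 and 1359.97, 3221 and 5940.1 in 35S::ERF104, so neither line overlapped with Col-0. The Col-0 array at 308 lies below the lowest signal called present on it (347), so the sizes of these differences are uncertain. TGA3 was also higher under water in erf104 and in 35S::ERF104 (1.48 ± 0.40 and 1.88 ± 0.40; adjusted p = 0.0337 and 0.0197), and NPR4 in 35S::ERF104 (1.91 ± 0.48; adjusted p = 0.0334). Under quantile normalization the calls of PR5 in both lines (adjusted p = 0.0511 and 0.0591) and of TGA4 in erf104 (0.0591) were lost, and under median centring that of UGT74F2 in mpk6 (0.0809). Of the calls in these 44 genes, those of ADR1-L1, NUDT7 and AT2G21340 in 35S::ERF104 were kept whichever single array was left out, and every other was lost without at least 1 array. All 5 in erf104 were lost without flg22 replicate 1 (adjusted p up to 0.319 for TGA4 over the arrays left out). In 35S::ERF104, AT5G52810 was lost without flg22 replicate 2 (adjusted p = 0.0616), NPR3 without flg22 replicate 3 or water replicate 1 (up to 0.0599), and AT5G62570 when any array but flg22 replicate 1 was left out (up to 0.114). TGA4, ADR1-L2 and UGT74F2 each depended on 4 arrays of that line, water replicate 2 among them (up to 0.149). UGT74F2 in mpk6 was lost without replicate 1 or 2 of either group (up to 0.137). The calls under water were lost without some replicates of the line or without Col-0 replicate 1 (PR5 up to 0.123, NPR4 up to 0.115, TGA3 up to 0.108), and that of TGA3 in erf104 also without Col-0 replicate 3.

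Finally, the probe sets whose 8 group means followed a member most closely were listed for ICS1, EDS1 and CBP60G, among 10348 single-gene probe sets detected in at least 4 groups. For CBP60G they were GGT1 (gamma-glutamyl transpeptidase), AT1G28390 and AT3G23300, with Pearson r of 0.997, 0.995 and 0.995. For EDS1 they were XLG3 (an extra-large G protein), CMPG2 and DRT101, with r of 0.977, 0.965 and 0.959. For ICS1 they were AT3G09805, AT1G76360 and MUB2, with r of 0.977, 0.976 and 0.973. Among the members the closest pair over the same 8 means was ICS1 and SAG101 (r = 0.918), followed by SAG101 and NPR1 (0.905). These are descriptions of 8 points that share the array scaling and the flg22 contrast. The lowest means of ICS1 and of SAG101, those of mpk6 water and Col-0 water, include arrays below the lowest signals called present on them.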

How the data were processed

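RNA of 24 leaf samples was measured on Affymetrix ATH1 arrays, 3 in each of 8 groups taken with their replicate numbers from the sample titles. The deposited values are linear intensities, 1 for a probe set on an array. The authors' mean after trimming 2% at both ends is the same on all arrays, from 500.01 to 500.1. No source used here names the program that summarised probes. A second table of the authors, from Genespring GX 7.3.1 per the series text, holds values per group: detection call letters and the loci used here, and 48 further value columns that were not used. It heads the 35S::ERF104 and erf104 groups EL1-Strep and EL1-k.o. They were matched because its lowest and highest raw intensities per group equal those of the labelled arrays. In a later check its raw group means equalled the means of those arrays within 0.1% for 86.1% to 90.7% of probe sets. Its erf104 flg22 means leave out replicate 2, as did every test here unless stated.

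The log2 of the deposited intensity was used, without pseudocount or filter, since no source used here gives calls for single arrays. The 64 control probe sets were left out. Tests were made in R 4.3.3 with lmFit and eBayes (intensity trend) of limma 3.58.1, Benjamini-Hochberg adjustment over all 22746 probe sets and a threshold of 0.05. The SE of the fit uses the moderated variance. Responses to flg22 were fitted within a genotype, as in the series text. Differences between responses or genotypes were fitted on 23 arrays. The code was tested on simulated data. A probe set called absent on every array of a group has only a bound there, and the number of arrays limits the precision.

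The 10 genes, the 6 lists of other pathway genes and the marker lists were chosen with earlier results of these data known. All 10 are named everywhere. Of each other list, up to 3 genes per comparison with the smallest adjusted p among those past the threshold are named, with ERF104, MPK6 and FRK1 as checks and the 3 most alike probe sets of ICS1, EDS1 and CBP60G. PR1 and ALD1 were named after their values were seen. Names follow RefSeq by locus, and loci it does not name keep their identifier. Alternatives were all 24 arrays, quantile normalization, median centring, no trend, a filter on calls, the replicate number as a block, 1 fit for all responses, the test named in the series text and leaving out each array.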

Additional observations from a re-analysis of the deposited data

Results flagged for a closer look

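The erf104 flg22 array that the comparisons leave out, replicate 2, held a signal above all 3 erf104 water arrays for 7 of the 10 genes. EDS1 read 1114 there and PAD4 1100.3, beside 312 and 198 on the highest water array. SAG101 read 693, EDS5 678 and CBP60G 696, beside 206, 194 and 612. SARD1 read 1322, beside 88.8, and FMO1 137, where the highest water array read 11.001. For CBP60G the left-out array stood well below the other flg22 arrays, at 2991 and 3579, while EDS1, PAD4, SAG101, EDS5, SARD1 and FMO1 stood above both. ICS1 and NPR1 lay below the water arrays, at 44.3 and 276, and PBS3 lay among them. Over all probe sets 54.2% stood above every erf104 water array on this array and 34.1% below, and its correlation with the other arrays was 0.22 to 0.25.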

How the results depend on the processing

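Over the 10 genes and 13 comparisons, 1692 of 1737 alternative values stayed on their side of the threshold, 39 lost the call, 5 gained one and 1 called value reversed. Among values called in neither fit, 168 turned their sign. The reversal was ICS1 in erf104 with all 24 arrays (log2 change −0.10; adjusted p = 0.970), where replicate 2 reads 44.3. The members called in erf104 then numbered 0 (CBP60G 2.66, adjusted p = 0.584), and 0 of all probe sets were called. Without the intensity trend the members called numbered 0 for each of Col-0, erf104 and mpk6 and 3 for 35S::ERF104, and the same counts came from the test of the series text after adjustment. Unadjusted and with more than 3-fold change, that test called 2 in Col-0 (CBP60G and SAG101), 2 in erf104 (CBP60G and PBS3), 1 in mpk6 and 1 in 35S::ERF104 (CBP60G in both). In 1 fit of 23 arrays the members called numbered 1 in erf104 and 1 in 35S::ERF104, beside 672 and 860 of all probe sets. Leaving out 1 array at a time gave 1 to 3 in erf104, 3 to 5 in 35S::ERF104, and 0 to 1 for erf104 against Col-0 under water, with 1 in every such fit of Col-0 and mpk6. Of all probe sets these fits called 396 to 2655 in erf104, 2986 to 3868 in 35S::ERF104, 239 to 681 in Col-0 and 198 to 1296 in mpk6. For erf104 against Col-0 under water it was 75 to 3725. Calls over all probe sets ran from 0 to 2386 in Col-0 (422 as reported), 0 to 2664 in erf104 (2209), 0 to 2053 in mpk6 (847) and 860 to 4649 in 35S::ERF104 (4177). The causes of these shifts were not tested. Deviations of same-numbered arrays from their group means correlated at −0.28 to 0.45 (median 0.00, over 45 pairs). For replicate 3, r was 0.45 between Col-0 flg22 and mpk6 flg22 and 0.36 between mpk6 flg22 and mpk6 water. It was −0.28 between Col-0 flg22 and Col-0 water. With the replicate number as a block, 1101 probe sets were called in Col-0 and 2053 in mpk6. Whether the numbers pair some of the samples is therefore not settled. The fit with the replicate block called 6 members in 35S::ERF104, PBS3 being the sixth, and left the counts of the other responses at 1 (Col-0), 3 (erf104) and 1 (mpk6). Of all 22746 probe sets it called 4649 in 35S::ERF104 and 2324 in erf104. Centring and quantile normalization turned the sign of EDS1 and EDS5 in Col-0. Signals near the lowest ones called present, highest in Col-0 water, limit what these arrays can size.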
